A study of Mus musculus with 18 samples.

Results

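The genes described here are 10 markers of immune cells, mostly of the macrophage lineage, measured in cells sorted from the mouse main olfactory epithelium (MOE): Ptprc, Fcer1g, Tyrobp, Csf1r, Aif1, Lyz2, Cd74, C1qa, C1qb and C1qc. They were chosen by symbol, and each was found in 1 row of the deposited expression table, so they are 10 of its 23359 gene symbols. All 10 are marker genes of leukocytes, and none is a marker of olfactory sensory neurons (OSNs). They mark macrophages in general, so their levels do not tell microglia from other macrophages. P2ry12 and Tmem119, which separate microglia from most other macrophages, were listed at 0 in 5 and 4 of the 9 controls and in 4 and 3 of the 7 reporter-positive libraries of the Taar5 line.

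Macrophages live in most tissues, where they clear dying cells and sense damage, and microglia are the macrophages of the brain. The olfactory epithelium loses and replaces neurons throughout life, and macrophages are part of its normal make-up. Several of the 10 genes work together: receptors without signalling tails of their own pass their signal through the adaptors encoded by Tyrobp and Fcer1g, Csf1r receives the growth factors on which macrophages depend, and C1qa, C1qb and C1qc encode the chains of C1q, which opens the classical complement pathway. Many macrophage genes carry sites for PU.1, a factor of the ETS family encoded by Sfpi1 (now Spi1), and ETS factors bind sequences with a GGAA core.

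The start regions of these genes were therefore read for such letters. RefSeq promoter windows (GRCm38.p6, 250 bases before to 50 bases after the annotated start) were found for 6 of the 10 genes in 7 windows, of which those of Ptprc overlap. The letters GGAAGT, on the other strand read as ACTTCC, occurred in 5 of the 7 windows, from 4 genes, and in 23.8% of all 32851 windows. The longer GAGGAAGT, which contains both GGAAGT and the letters GAGGAA, occurred in 1 window, that of C1qc, and in 3.20% of all windows. GAGGAA, on the other strand TTCCTC, occurred in 4 of the 7 windows, from Ptprc, C1qb, C1qc and Aif1, and in 28.3% of all windows. The stretches around GGAAGT or ACTTCC are shown for C1qb, C1qc, Lyz2 and Ptprc. The shared letters and their distances from the start can thus be compared. The stretches are written 5′ to 3′ on the gene's own strand, which is the minus strand for all 4, with the motif in capitals. Ptprc has a further match, GGAAGT, 112 to 107 bases before the same start, which is not printed. These matches are descriptions of the sequence and not mapped binding sites.
C1qb, chr4:136886221-136886280, motif 53 to 48 bases before the start: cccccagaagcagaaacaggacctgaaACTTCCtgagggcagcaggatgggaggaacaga
C1qc, chr4:136893077-136893136, motif 195 to 190 bases before the start: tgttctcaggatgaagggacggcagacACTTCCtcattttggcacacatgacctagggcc
Lyz2, chr10:117282340-117282399, motif 100 to 95 bases before the start: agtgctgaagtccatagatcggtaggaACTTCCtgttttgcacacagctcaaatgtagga
Ptprc, chr1:138175331-138175390, motif 58 to 53 bases before the start: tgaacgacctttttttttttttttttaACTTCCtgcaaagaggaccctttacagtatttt

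The libraries came from a study of how neurons choose receptors of the trace amine-associated receptor (TAAR) family. In mice labelled C57BL/6 that carry Taar5-ires-Cre or Taar6-ires-Cre, Cre is made from the transcript of the receptor gene and switches on a green reporter, lox-L10-GFP or lox-ZsGreen, so that only cells which have used that gene, and their later states, glow. The Taar5 line gave 7 libraries of reporter-positive cells (Taar5+) and 9 of reporter-negative cells (control) at postnatal day 11 to 14, and the Taar6 line gave 1 library of each kind (Taar6+ and control) at postnatal day 16 to 17. All 4 groups carry both the Cre allele and the reporter of their line. The reporter-negative group is therefore not a cell type but every cell that did not glow, mostly OSNs with odorant receptors, and it may hold any other cell of the tissue. The study's reporting summary gives a mixed background, with part from the 129 strain, and an older age, in weeks, than the labels. Line, reporter protein and any difference in age cannot be told apart between the lines. The labels do not say how many animals stand behind a library, so the p-values given here measure the spread between these libraries, which may in part be technical.

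Values are TPM, the share of a library's transcripts that a gene takes per 1000000, corrected for transcript length, so levels of different genes can be compared within a library. The depth of each library is unknown because TPM keep no counts. The number of gene rows above 0 ran from 5939 to 17808. Control replicate 2 stood apart, with the lowest number of rows above 0 and with 639 of 3204 abundant genes (those with a median over the remaining libraries of 50 TPM or more) listed at 0, against at most 47 in any other library. An entry of 0 in such a table can be a failed estimate, so a gene is described as listed at 0 and not as absent. Taar5+ replicate 5 had the most rows above 0 and the lowest level of Taar4, 756 TPM against 1194 to 3689 TPM in the other Taar5+ libraries. Ppia, a gene that every cell uses, was listed at 0 in both libraries of the Taar6 line, and Gapdh, a glycolytic enzyme of every cell, stood at 1.43 and 6.06 TPM there against at least 436 TPM in the Taar5 line. No level of an immune gene is therefore ranked across the lines. In the Taar5 line the sort was seen in Taar5 itself, which spanned 47.0 to 347 TPM after the positive sort and reached at most 7.71 TPM after the negative one.

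The summed level of the immune genes was lower in 5 of the 7 Taar5+ libraries than in any control. Summed over the 10 genes, controls spanned 166 to 1121 TPM (median 332 TPM) and Taar5+ libraries 0 to 627 TPM (median 13.2 TPM). The ratio of the group medians was 25.1. Leaving out Taar5+ replicate 2 gave 10.7, leaving out Taar5+ replicate 4, 6 or 7 gave 10.2, and leaving out any other single library gave 24.1 to 28.7. The Taar5+ libraries did not behave alike: replicates 5 and 1 held 627 and 186 TPM, within the range of the controls, and the other 5 held at most 51.9 TPM, below every control. Among controls, replicates 8, 6 and 4 were the highest with 1121, 899 and 867 TPM. In a bulk library, fewer cells of a type and less RNA per cell cannot be told apart. The sum is given without a test because the genes were chosen as a list.

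**Figure D1:**
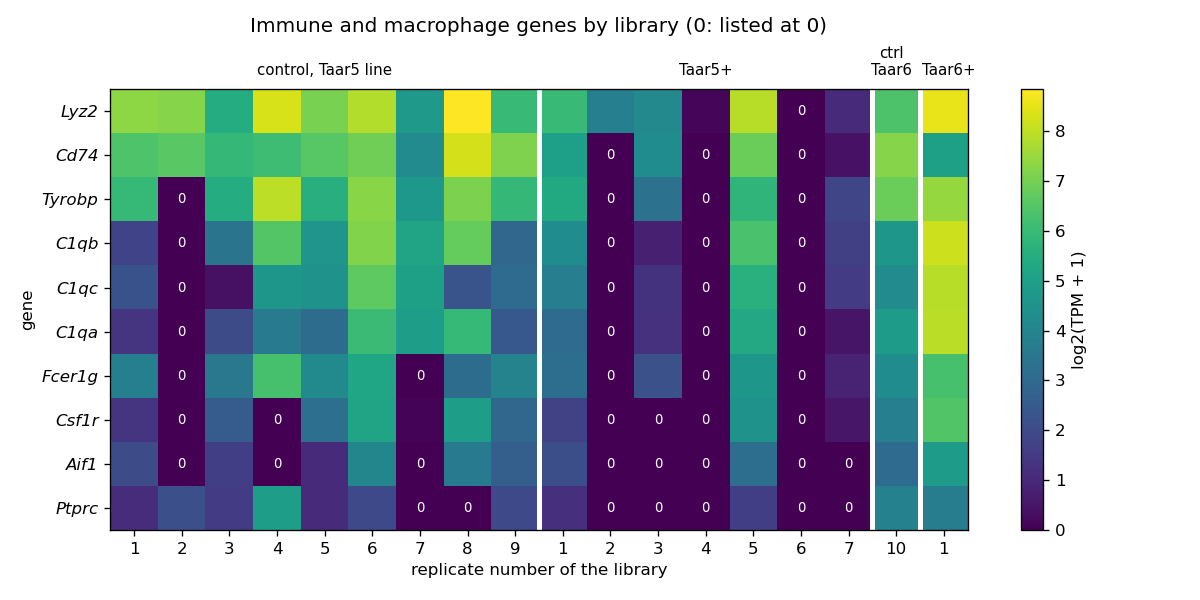
Heat map of log2(TPM + 1) for the 10 immune genes (vertical axis) in each of the 18 libraries (horizontal axis, replicate numbers, grouped by sort), with a 0 printed in cells listed at 0. Taar5+ replicate 6 is at 0 for all 10 genes and replicates 2 and 4 keep Lyz2 alone, while Taar5+ replicates 1 and 5 show all 10.

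The number of genes detected followed the same split. Of the 9 controls of the Taar5 line, 5 had all 10 genes above 0, and the lowest was replicate 2 with 3 (Ptprc, Lyz2 and Cd74). Of the 7 Taar5+ libraries, 2 had all 10 above 0 and 3 had 1 or none. Detection went in part with the number of rows above 0: the 7 libraries of the line with all 10 genes had at least 14424 rows above 0. Each library with fewer rows had fewer than 10 of the genes. Taar5+ replicate 7, with 14495 rows above 0, had 8 of them. At similar numbers of rows, 9866 to 11706, controls 4, 7 and 8 held 8, 7 and 9 of the genes and Taar5+ replicates 2, 4 and 6 held 1, 1 and 0. The part of library complexity in the differences was not tested.

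**Figure D2:**
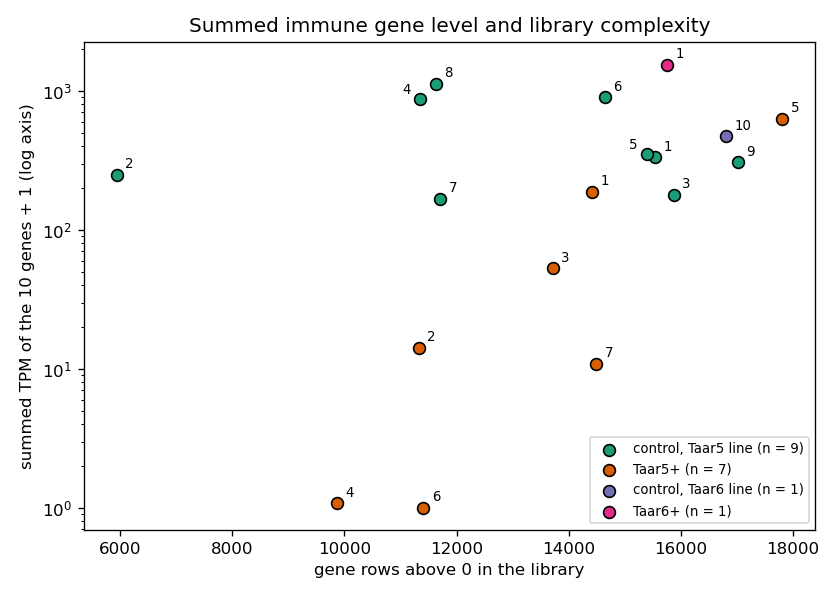
Summed TPM of the 10 immune genes plus 1 (vertical log axis) against the number of gene rows above 0 (horizontal axis) for each library, coloured by group and labelled by replicate number. Taar5+ replicates 2, 4 and 6 lie below controls 4, 7 and 8 although their numbers of rows above 0 are similar, at 9866 to 11408 against 11352 to 11706.

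The fit across all genes gave every one of the 10 a negative log2 fold change, and none passed the threshold. Of 12502 genes tested with limma on log2(TPM + 1), 21 had a Benjamini-Hochberg adjusted p under 0.05 and 3 of these, 0.024% of the genes tested, were lower in Taar5+ cells. All 10 immune genes passed the filter on low values and were tested, and 0 of 10 were called. At an unadjusted p under 0.05, 5 of the 10 were lower (Cd74, Lyz2, Tyrobp, C1qb and Ptprc), against 5.38% of all genes tested. A negative sign was found for 48.6% of all genes tested. The median log2 fold change was -1.80 for the 10 genes and 0.02 for all genes tested. The ranges of the groups overlapped for each of the 10, and how often this holds among all genes tested was not counted.

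The libraries that stand apart bear on these calls. Without Taar5+ replicate 5, 2 of the 10 genes were lower with a limma adjusted p under 0.05, Cd74 (0.00592) and Lyz2 (0.0202), against 0.301% of all genes tested. Without control replicate 2, 2 were lower, Tyrobp (0.0298) and Cd74 (0.0431), against 0.939%. Without both libraries, an alternative chosen after the data were seen, 4 were lower, Cd74 (0.00272), Tyrobp (0.00317), Lyz2 (0.00735) and C1qb (0.0317), against 2.42%. Taar5+ replicate 5 had the highest immune sum of its group, and control replicate 2 had 3 of the 10 genes above 0. Leaving out both therefore favours lower values of these genes in Taar5+ cells, so these p-values are no separate support. Over all alternatives run, the limma adjusted p spanned 0.00103 to 0.322 for Cd74, 0.006 to 0.463 for Lyz2, 0.000805 to 0.703 for Tyrobp and 0.0317 to 0.993 for C1qb. Without both libraries the median log2 fold change of the 10 genes was -2.80, and that of all genes tested was -0.22.

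**Figure D3:**
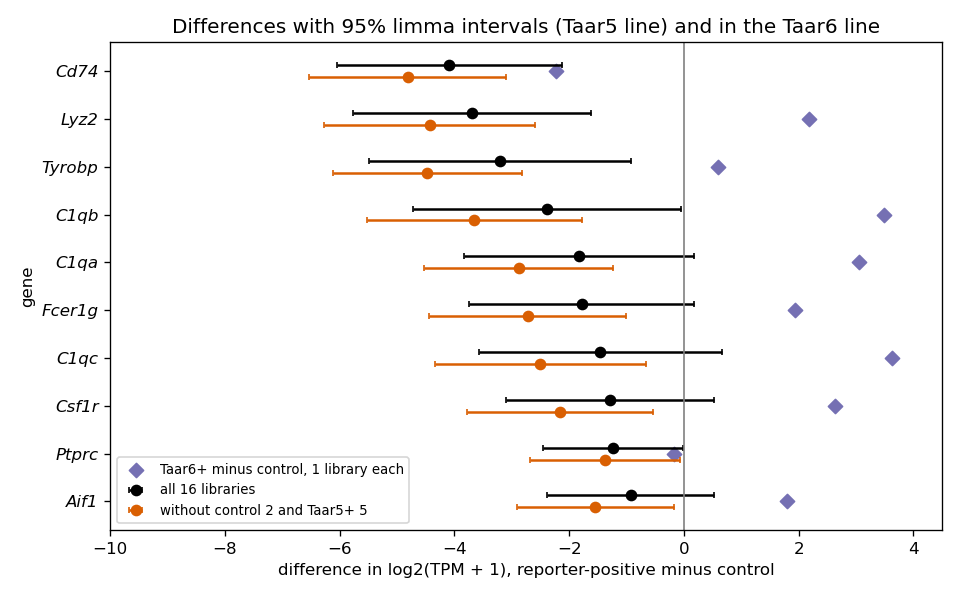
Difference in log2(TPM + 1), reporter-positive minus control (horizontal axis), for each immune gene (vertical axis): circles with bars are limma estimates with 95% intervals in the Taar5 line, from all 16 libraries (black) and without control replicate 2 and Taar5+ replicate 5 (orange). Diamonds are single differences in the Taar6 line with no error. All circles lie below 0, while 8 of the 10 diamonds lie above 0.

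The genes that most immune cells share were low. Ptprc (chromosome 1, 138062861 to 138175708, minus strand, 29 to 33 exons) encodes CD45, the phosphatase on the surface of nucleated blood cells. Controls spanned 0 to 29.3 TPM (median 1.87 TPM) and Taar5+ libraries 0 to 2.099 TPM (median 0), with 5 of the latter listed at 0. The highest value was that of control replicate 4, and every other control held at most 3.51 TPM. The log2 fold change was -1.24 (SE 0.58, limma adjusted p = 0.692). Control replicate 4 also had the highest sum of 9 neutrophil and granulocyte markers, 2630 TPM against at most 671 TPM in the other controls of the line. Whether those cells supplied the Ptprc signal was not tested.

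The adaptor genes split by level. Tyrobp (chromosome 7, 30413760 to 30417585, plus strand, 5 exons) encodes DAP12, the adaptor of TREM2 and other activating receptors. Controls spanned 0 to 251 TPM (median 58.0 TPM) and Taar5+ libraries 0 to 54.3 TPM (median 2.61 TPM). All 7 Taar5+ libraries lay below the control median, and the control listed at 0 was replicate 2. The log2 fold change was -3.21 (SE 1.09, limma adjusted p = 0.359), and it was -4.47 without control replicate 2 and Taar5+ replicate 5. Fcer1g (chromosome 1, 171229572 to 171234365, minus strand, 5 exons) encodes the gamma chain shared by Fc receptors. Its median was 13.02 TPM in controls (0 to 76.6 TPM) and 0.828 TPM in Taar5+ libraries (0 to 24.5 TPM), with a log2 fold change of -1.78 (SE 0.94, limma adjusted p = 0.795). Controls 2 and 7 and 3 of the Taar5+ libraries were listed at 0.

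The receptor and cytoskeletal markers of macrophages overlapped widely between the groups. Csf1r (chromosome 18, 61100598 to 61132149, plus strand, 21 to 22 exons) encodes the receptor for CSF1 and IL34 and overlaps Hmgxb3 on the other strand, and counting by strand is not stated. Its median was 4.99 TPM in controls (0 to 34.5 TPM) and 0 in Taar5+ libraries (0 to 21.6 TPM). Among Taar5+ libraries, replicate 5 held 21.6 TPM and the next highest 2.26 TPM, and 4 were listed at 0. Aif1 (chromosome 17, 35170991 to 35176068, minus strand, 6 to 8 exons) encodes IBA1, an actin-bundling protein used to stain macrophages and microglia. Its median was 2.096 TPM in controls (0 to 15.8 TPM) and 0 in Taar5+ libraries (0 to 8.12 TPM). The log2 fold changes were -1.29 for Csf1r (SE 0.87, limma adjusted p = 0.922) and -0.93 for Aif1 (SE 0.69, limma adjusted p = 0.935).

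Lyz2 and Cd74 had the highest levels of the 10 genes. Lyz2 (chromosome 10, 117277331 to 117282321, minus strand, 4 exons) encodes lysozyme M of macrophages and granulocytes. Controls spanned 26.5 to 459 TPM (median 148 TPM) and Taar5+ libraries 0 to 237 TPM (median 13.2 TPM). Of the 7 Taar5+ libraries, 5 lay below every control, while replicate 5 with 237 TPM lay above the control median. The log2 fold change was -3.70 (SE 0.99, limma adjusted p = 0.205). Of the 50-base words in the Lyz2 transcript, 15.4% also occur in its neighbour Lyz1, while the other 9 genes shared none with another gene. How reads from shared words were assigned is not stated, so the error in the Lyz2 value is unknown.

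Cd74 (chromosome 18, 60803848 to 60812652, plus strand, 8 to 10 exons) encodes the invariant chain that guides MHC class II molecules to the endosome. It showed the most negative difference of the 10 genes. Controls spanned 18.2 to 307 TPM (median 92.9 TPM) and none was listed at 0, control replicate 2 included. Taar5+ libraries spanned 0 to 114 TPM (median 0.364 TPM), 4 of the 7 lay below every control, and 3 were listed at 0. The log2 fold change was -4.09 (SE 0.94, limma adjusted p = 0.105), which did not pass the threshold, and the mean TPM of controls was 4.66 times that of Taar5+ libraries.

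**Figure D4:**
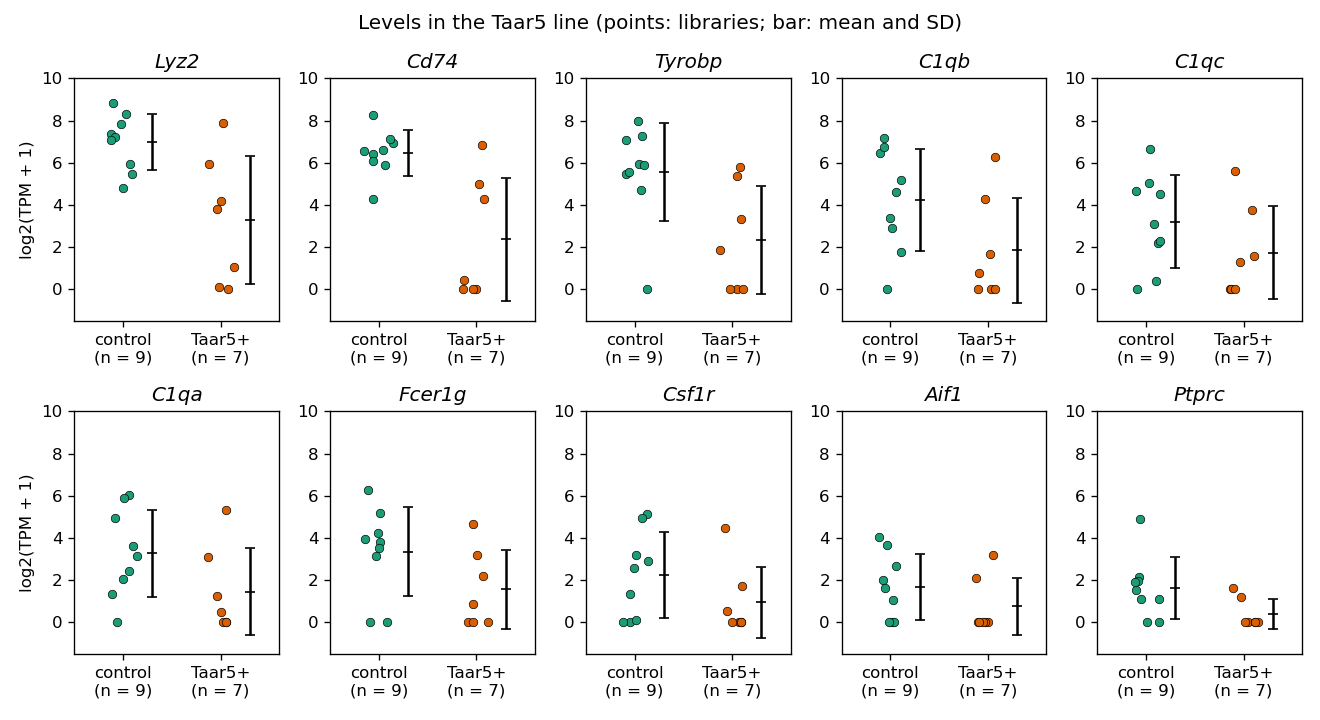
Levels of each of the 10 genes as log2(TPM + 1) (vertical axis) in the 9 control and 7 Taar5+ libraries of the Taar5 line (horizontal axis); points are libraries and bars show the mean and SD. The groups overlap in all 10 panels, and the lowest controls for Lyz2 and Cd74 lie above 5 and 4 of the Taar5+ points.

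The C1q genes lie side by side on chromosome 4, all on the minus strand and each with 3 exons: C1qb from 136880129 to 136886187, C1qc from 136889804 to 136893065 and C1qa from 136895917 to 136898803. Their summed level spanned 0 to 306 TPM in controls (median 53.0 TPM) and 0 to 165 TPM in Taar5+ libraries (median 3.52 TPM). The controls with the highest sums were replicate 6 (306 TPM), replicate 8 (169 TPM) and replicate 4 (123 TPM). Control replicate 2 and Taar5+ replicates 2, 4 and 6 were listed at 0 for all of them.

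Taken singly, C1qb had a median of 23.6 TPM in controls and 0.708 TPM in Taar5+ libraries, with a log2 fold change of -2.39 (SE 1.12, limma adjusted p = 0.692). The medians were 7.81 and 0.424 TPM for C1qa (log2 fold change -1.82, SE 0.96, limma adjusted p = 0.793) and 7.60 and 1.43 TPM for C1qc (log2 fold change -1.46, SE 1.01, limma adjusted p = 0.922). The C1q protein holds its A, B and C chains in equal numbers, but the transcripts were not in equal shares in each library. In control replicate 8, C1qb made up 62.6% of the C1q sum and C1qc 2.28%, and in control replicate 3 they made up 72.9% and 2.54%. In Taar6+ cells the shares were 31.5% for C1qa, 37.6% for C1qb and 30.9% for C1qc. These shares have no counting error because the depth is unknown.

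The make-up of the immune signal varied between libraries of the same group. In controls, Lyz2 made up 34.5% ± 14.4 (SD, n = 9) of the summed level of the 10 genes, Cd74 25.3% ± 12.7, Tyrobp 16.4% ± 8.17 and C1qb 7.91% ± 7.04. Lyz2 was the largest in 6 controls, Cd74 in 2 and C1qb in 1. The lowest control sum, that of replicate 7, was the one led by C1qb (35.0 TPM). In the 4 Taar5+ libraries with a sum of at least 10 TPM, the median share of Lyz2 was 35.4%, against 36.9% in controls, and it was 100% in replicate 2, where no other gene was above 0, and 32.5% to 37.9% in the remaining 3. The median share of Cd74 was 17.4% in these libraries and 26.3% in controls.

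Across the 16 libraries of the Taar5 line, the levels of the 10 genes moved together to different degrees. The Spearman correlation of each gene with the mean log2(TPM + 1) of the other 9 was highest for C1qa (0.91), C1qb (0.90) and Tyrobp (0.90) and lowest for Ptprc (0.55). These correlations are descriptions over libraries from both sorts, whose depths are unknown and differ to an unknown degree. Of 12492 other genes, those with the highest Spearman correlation with the mean of the 10 were Steap2 (0.94), Gm933 (0.93), Muc20 (0.93), Cpxm2 (0.92), Cd68 (0.92), Pdpn (0.92), Utrn (0.92), Olfr1507 (0.91), Ccl3 (0.91) and Moxd1 (0.91). Cd68 encodes a lysosomal protein of macrophages and Ccl3 a chemokine of activated macrophages, whereas Olfr1507 is an odorant receptor gene. Only genes that passed the filter on low values could be ranked. Among the 100 of 12492 genes most like the mean were 7 of the 11 ranked myeloid receptors and enzymes and 2 of the 3 ranked microvillar cell markers.

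Other genes of the myeloid lineage were then read from lists. For this and every later list of the Taar5 line, the shares of all genes tested apply. Of these, 5.38% were lower at an unadjusted p under 0.05 and 48.6% had a negative sign. Of the 20 myeloid receptors and enzymes, 11 were tested, 10 of these had a negative log2 fold change (median -1.57), 5 had an unadjusted p under 0.05 and 0 were called in limma. The tested gene without a negative sign was Coro1a (log2 fold change 0.72, limma adjusted p = 0.956). It was above 0 in all 7 Taar5+ libraries, with medians of 28.9 TPM there and 32.0 TPM in controls. Ctss, a lysosomal protease that cuts the invariant chain and the highest gene of this list, had a median of 26.7 TPM in controls (1 listed at 0) and 0 in Taar5+ libraries, with a log2 fold change of -3.32 (limma adjusted p = 0.300). Of the 8 myeloid transcription factors, 5 were tested, all negative (median -1.17), with 2 at an unadjusted p under 0.05. Sfpi1 showed medians of 4.56 TPM in controls and 0 in Taar5+ libraries and a log2 fold change of -1.67 (limma adjusted p = 0.611). Of the 10 partners and kinases of the adaptors, 2 were tested, and both were negative. The highest, Lyn, a kinase that phosphorylates the adaptors' signalling motifs, showed medians of 2.06 TPM in controls and 0.231 TPM in Taar5+ libraries. Cd163, a scavenger receptor of resident macrophages, was listed at 0 in all 7 Taar5+ libraries and in 8 of the 9 controls, with 0.412 TPM in the remaining one.

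Of 9 microglia-enriched genes, 2 were tested, and neither had an unadjusted p under 0.05. Of the 11 complement genes outside C1q, 2 were tested, 1 of them negative. The highest of these, Serping1, which encodes the inhibitor of the C1 enzymes, showed a control median of 21.0 TPM and a Taar5+ median of 2.98 TPM (a log2 fold change of -1.22, limma adjusted p = 0.921). Of 4 ligand genes of the receptors, 2 were tested, and Mif, a ligand of CD74, gave a difference smaller than its error, with a control median of 148 TPM and a Taar5+ median of 170.3 TPM (log2 fold change 0.11, limma adjusted p = 0.981). Il34, a ligand of the Csf1r receptor, was listed at 0 in 8 of the 9 controls (at most 0.141 TPM) and in 4 of the 7 Taar5+ libraries (at most 3.14 TPM).

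The MHC class II list was mixed. Of the 8 genes of this list, 6 were tested, 5 had a negative log2 fold change (median -3.31), 4 had an unadjusted p under 0.05 and 0 were called in limma. These 4 were H2-Ab1, H2-Aa, H2-Eb1 and Ctss, of which Ctss also stands in the myeloid list. H2-Ab1, a class II beta chain and the highest gene of the list, spanned 5.65 to 374 TPM in controls (median 139.5 TPM) and 0 to 135 TPM in Taar5+ libraries (median 0.621 TPM). Its log2 fold change was -4.25 (limma adjusted p = 0.188). H2-DMa and H2-DMb1, which encode the H2-DM chaperone of peptide loading, were above 0 in all 7 Taar5+ libraries, with log2 fold changes of -0.12 and 0.40. The summed list ran from 101 to 770 TPM in controls and from 34.9 to 361 TPM in Taar5+ libraries.

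Markers of other blood cells were read in the same way. The neutrophil and granulocyte list summed to 0 to 2630 TPM in controls (median 231 TPM) and to 0 to 266 TPM in Taar5+ libraries (median 3.01 TPM). A single gene, Ltf, gave the whole sum of control replicate 2 (551 TPM). It also gave 203 of the 266 TPM of Taar5+ replicate 5. Of the 9 genes of the list, 3 were tested, 2 with an unadjusted p under 0.05. S100a8, a calcium-binding protein of neutrophils and the highest of them, showed a control median of 111 TPM and a Taar5+ median of 0 (log2 fold change -3.56, limma adjusted p = 0.627). Controls 7 and 8 were at 0 for the whole neutrophil list yet held 166 and 1121 TPM of the 10 immune genes. For B cells, Cd79b, a chain of the antigen receptor, was the gene tested (log2 fold change -1.90, limma adjusted p = 0.378), with sums of 0 to 53.2 TPM in controls and 0 to 9.83 TPM in Taar5+ libraries. T and NK cell markers reached at most 10.2 TPM in controls and 14.2 TPM in Taar5+ libraries, and Gzma, a granule protease, led the list (log2 fold change -0.15, limma adjusted p = 0.987). Of the mast cell list, Cma1, Mcpt4 and Tpsb2 were listed at 0 in all 16 libraries of the Taar5 line, and Kit, which led it, had a log2 fold change of -0.54 (limma adjusted p = 0.962). Erythroid genes, led by Hba-a1, were spread from 1.25 to 9715 TPM in controls and from 6.67 to 2196 TPM in Taar5+ libraries, with a log2 fold change of 0.13 for Hba-a1 (limma adjusted p = 0.996).

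**Figure D5:**
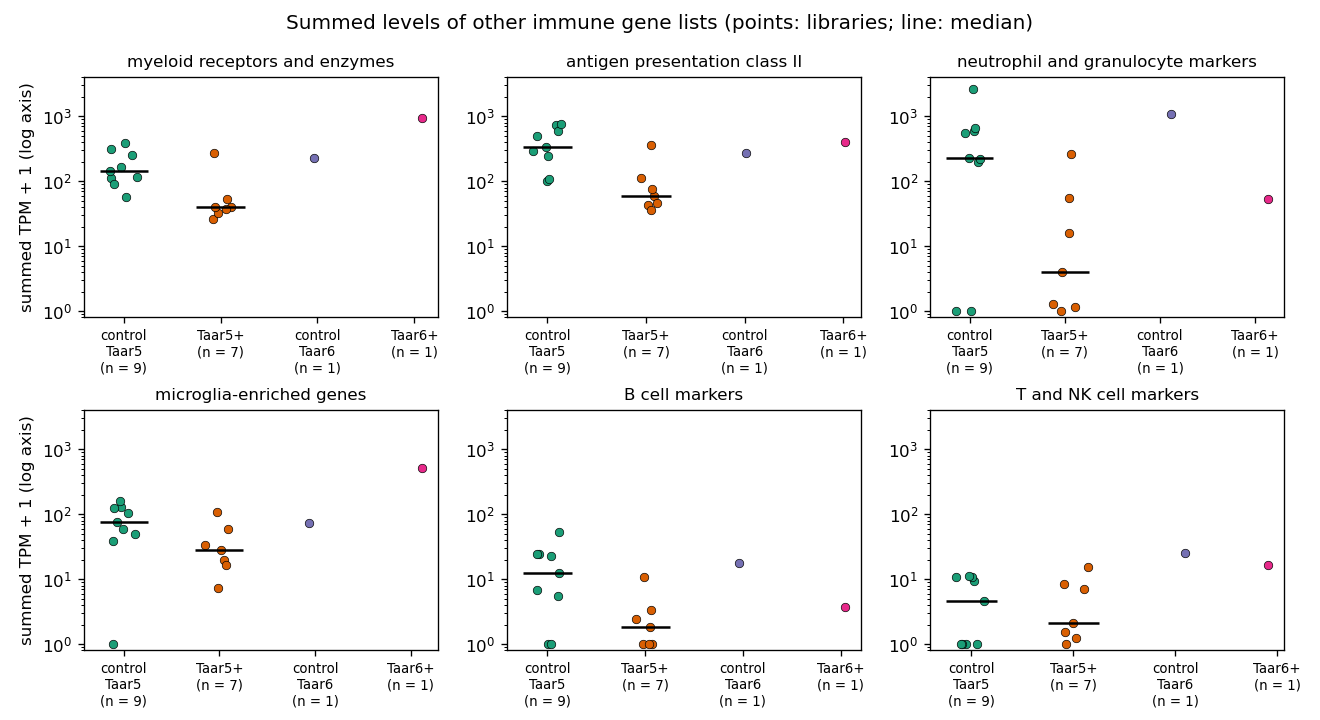
Summed TPM plus 1 (vertical log axis) of 6 other immune gene lists in each library, by group (horizontal axis); points are libraries and lines are medians. The control medians are 145 TPM for myeloid receptors and enzymes, 337 TPM for class II genes and 231 TPM for neutrophil markers, against 39.0, 58.1 and 3.01 TPM in Taar5+ libraries. The myeloid sum includes Coro1a, whose Taar5+ median alone is 28.9 TPM.

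Markers of other non-neuronal cells were set beside the immune genes. All 4 horizontal basal cell markers had an unadjusted p under 0.05 and were lower in Taar5+ libraries, against 5.38% of all genes tested. Their sums were 0 to 188 TPM against 62.2 to 123 TPM in controls, with Krt14, a keratin, as the highest (log2 fold change -3.04). Of the microvillar list, 2 of 3 genes tested had an unadjusted p under 0.05, with sums of 0.266 to 212 TPM against 13.2 to 695 TPM and Ascl3 as the highest (log2 fold change -2.81). Endothelial sums were 1.58 to 48.9 TPM against 10.2 to 51.6 TPM. Of the 2 endothelial genes tested, Cldn5 had a log2 fold change of -2.03, also at an unadjusted p under 0.05. The other, Pecam1, had one of 0.08. Fibroblast and pericyte sums were 16.2 to 1106 TPM against 26.1 to 3111 TPM (Rgs5 log2 fold change -1.42). Ensheathing glia sums were 0 to 111 TPM against 16.9 to 203 TPM (Fabp7 -1.41). Sustentacular sums were 62.0 to 7514 TPM against 29.2 to 9078 TPM (Cyp2g1 0.54). Muc2, a mucin, was higher in Taar5+ libraries at an unadjusted p under 0.05 (log2 fold change 2.18). Gland sums were 192 to 10981 TPM against 198 to 72931 TPM (Scgb1c1 -0.51). The highest control sums of the fibroblast, sustentacular and gland lists were all those of control replicate 2. The other controls held at most 354, 731 and 2594 TPM, in that order. In control replicate 2 the fibroblast and pericyte sum, 3111 TPM, equalled the level of Rgs5 alone. Its horizontal basal sum (119 TPM) was likewise that of Icam1 alone, and its endothelial sum (32.1 TPM) that of Pecam1 alone. Above 731 TPM of sustentacular genes lay Taar5+ replicates 1, 5 and 6, with 1774, 7514 and 1320 TPM. Above 2594 TPM of gland genes lay Taar5+ replicates 1, 2 and 5, with 3392, 3176 and 10981 TPM. None of the marker genes of these lists had a limma adjusted p under 0.05. The part that these cells had in the differences of the immune genes was not tested.

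The neuronal lists were read beside them. Mature OSN markers summed to 27593 to 40829 TPM in Taar5+ libraries and 17954 to 60844 TPM in controls. The lowest control was replicate 2, and the other controls held at least 31440 TPM. Omp, which marks mature OSNs, had a log2 fold change of 0.38. Stoml3, a stomatin of olfactory cilia, was the gene of these lists called lower in limma (log2 fold change -1.42, adjusted p = 0.00994). Immature OSN sums were 2367 to 3634 TPM against 976 to 6219 TPM (Stmn1 -0.46), and progenitor sums 3.31 to 137 TPM against 0 to 147 TPM (Neurod1 -1.60). Genes that every cell uses summed to 5545 to 9578 TPM against 6300 to 12019 TPM (Actb -0.25).

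Taar5+ replicate 5, the Taar5+ library with the highest immune sum, was also high for other cell types. It had the highest sustentacular sum of its group, 7514 TPM against 62.0 to 1774 TPM, the highest fibroblast and pericyte sum, 1106 TPM against 16.2 to 174 TPM, and the highest horizontal basal sum, 188 TPM against 0 to 17.5 TPM. Its mature OSN sum was the lowest of its group, 27593 TPM against 32839 to 40829 TPM. The share of other cells in this library was not tested.

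In the Taar6 line most of the immune genes were higher in the reporter-positive cells, in 1 library against 1 and so with no replicate check. The 10 genes summed to 1545 TPM in the Taar6+ library against 471 TPM in its control. Higher values in Taar6+ cells were seen for 8 of the 10, against 5455 of the 17312 symbols above 0 in either library. Of the 10 genes, 7 exceeded the control by over 1 on the log2 scale, against 4.29% of these symbols. The median difference in log2(TPM + 1) was 2.07 for the 10 genes and -0.20 for all symbols.

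The C1q genes had the largest differences. With the Taar6+ level first, C1qc stood at 236 against 18.3 TPM, C1qb at 288 against 24.7 TPM and C1qa at 241 against 28.1 TPM. Csf1r stood at 87.1 against 13.1 TPM, Lyz2 at 372 against 81.0 TPM, Fcer1g at 75.7 against 18.9 TPM and Aif1 at 28.6 against 7.48 TPM. Tyrobp, at 174 against 115 TPM, and Ptprc, at 12.02 against 13.7 TPM, were closer. Cd74 was lower in the positive sort, at 31.3 against 151 TPM.

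Other immune lists did not all differ the same way in this line. For comparison, 5455 of the 17312 symbols above 0 in either library were higher in Taar6+ cells. Microglia-enriched genes summed to 508 TPM in the positive sort against 72.3 TPM, and 8 of 9 were higher. Myeloid receptors and enzymes summed to 931 against 226 TPM, and 17 of 20 were higher. The class II list summed to 403 against 272 TPM, and 3 of 8 were higher, which is near the share of all symbols. Within it, Ctss stood at 327 against 33.9 TPM and H2-Ab1 at 11.3 against 88.0 TPM. Neutrophil markers summed to 51.5 against 1067 TPM, and B cell markers to 2.73 against 16.99 TPM. Sustentacular markers were also higher in Taar6+ cells, at 1262 against 159 TPM, and their part in these values was not tested.

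Whether the reporter effect differed between the lines was asked with an interaction term in limma over all 18 libraries, added after the differences in both lines were seen. None of the 10 genes passed (limma adjusted p = 0.999958 for each), and 0 had an unadjusted p under 0.05, against 0.203% of the 13324 genes tested. The Taar6 line enters with 1 library a group and is assumed to vary like the Taar5 line, so a difference between the lines was not shown, and the test says nothing of their likeness.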

How the data were processed

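RNA of sorted cells was made into Smart-seq2 libraries, which amplify full-length cDNA by PCR without molecular identifiers. Per the submitters' processing notes and the methods, the authors trimmed reads with Trimmomatic 0.36, mapped them to mm10 (GRCm38) with HISAT2 2.1.0 and quantified genes with Cufflinks 2.2.1. The deposited values are TPM. How they were derived from Cufflinks, the annotation, strand and multimapping are not given in the sources used here. A count model cannot be run on TPM and none was. TPM hold no depth, so counting error is not given.

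The 488 rows that repeat a symbol were summed with its first row. The 13 Taar values of control replicate 2 above 0 repeat those of control replicate 1 and were set to missing. None of the 10 genes had such copies. A gene entered the test if it reached 1 TPM in 7 or more of 16 libraries. The test was that of limma 3.58.1 (R 4.3.3; lmFit, eBayes with a trend) on log2(TPM + 1), which understates changes of low genes, with Benjamini-Hochberg adjustment over all tested genes and a threshold of 0.05. The step was tested on simulated data. Tables were handled in Python 3.11.15 (pandas 2.3.3, numpy 2.4.6).

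Gene positions were read from the GENCODE M21 annotation of GRCm38. The 10 genes and the lists were chosen with earlier results of these data known. Genes named were the 10, the gene with the highest mean TPM and any called gene of each list, the 10 most similar genes, Ppia, and Taar5 and Taar4, and 1 gene under this rule is not reported here. P2ry12, Tmem119, Cd163, Il34, Gapdh, H2-Aa, H2-Eb1, H2-DMa and H2-DMb1 were named after their values were seen. So were Pecam1, Icam1, Ltf, Coro1a, Muc2, Cma1, Mcpt4, Tpsb2 and Csf1r's neighbour Hmgxb3. Older symbols in the table (Sfpi1 for Spi1) were matched through RefSeq synonyms, and Hbb-bt was not matched. Alternatives were other pseudocounts, filters and scalings, library weights, a replicate block, added libraries and leaving out libraries.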

Additional observations from a re-analysis of the deposited data

Results flagged for a closer look

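In 24 groups of values, a library's gap to its nearest neighbour was compared with the range of its group. A gap beyond the 95% limit of Dixon's test was found in 3 groups, where chance gives about 1 in 20 groups, or 1.2 here. All values are log2(TPM + 1). Ptprc in control replicate 4 was 4.92, against 0 to 2.17 in the other controls. Tyrobp in control replicate 2 was 0, against 4.70 to 7.98 in the other controls, and 639 abundant genes were listed at 0 in that library. Csf1r in Taar5+ replicate 5 was 4.498, against 0 to 1.70 in the other Taar5+ libraries. No cause was tested.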

How the results depend on the processing

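All 283 recomputed log2 fold changes of the 10 genes were negative. Of these, 17 passed the threshold where the fit of all 16 libraries did not. They come from refits of the same libraries and are not separate checks. Array weights gave 7 of the 17, and 8373 of all 12502 genes tested were negative there. Another 4 came without control replicate 2 and Taar5+ replicate 5, where 8012 of 11915 genes tested were negative. The number of genes called, 21 with all libraries, was 109 with quantile normalization, 11 with TPM rescaled without receptor genes, 1349 with array weights and 337 without control replicate 2 and Taar5+ replicate 5, and 16 to 148 when each library was left out in turn (148 without control replicate 2, 66 without Taar5+ replicate 5). Of the 10 immune genes, 0 were called with all libraries, 1 with quantile normalization (Cd74), 7 with array weights (all but the C1q genes) and 4 without both libraries, and 0 to 2 when each was left out in turn. Array weights gave control replicate 2 a weight of 0.0525 and Taar5+ replicate 7 one of 5.56. The stricter filter kept 3 of the 10 genes for testing, so no value under it can be given for the other 7. The cause of these changes was not tested.

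With the replicate number as a replicate block, 47 genes were called and 1 of the 10 immune genes, Cd74 (limma adjusted p = 0.0408). The labels do not say what a number stands for, and the numbers were not taken as a pairing because not every pair reached 0.1: the correlation of deviations of same-numbered libraries ran from -0.00617 to 0.275 over 7 pairs, was over 0.1 in 5, and was the best match in 3.

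The ratio of summed medians was 24.9 to 29.6 under the other settings. Unknown depth limits every value listed at 0.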
